A study of Homo sapiens with 2 samples.

Results

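The troponin complex is the calcium switch of striated muscle, and its 8 genes were followed here through a culture of human pacemaker-type heart cells: TNNT1, TNNT2 and TNNT3 (troponin T), TNNI1, TNNI2 and TNNI3 (troponin I), and TNNC1 and TNNC2 (troponin C). They were taken by gene name from the 36601 genes of the deposited count matrix, and all 8 were present. HES2 is an established human embryonic stem cell line. The submitters differentiated it toward sinoatrial node-like pacemaker cells (SANLPC), the counterpart of the cells that set the heartbeat, stained the dissociated cells with an oligonucleotide-tagged CD34 antibody, sorted live single cells with DAPI and prepared an RNA library (10x 3′ capture of polyadenylated transcripts) and an antibody tag library from them. There was 1 culture, with no age, genotype or treatment contrast in the labels, so cells are not replicates: no test was possible, and every interval below is an exact 95% interval that covers counting error only.

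Troponin T anchors the complex to tropomyosin, troponin I holds the thin filament off between beats, and troponin C binds calcium and releases that block. TNNT2, TNNI3 and TNNC1 encode the cardiac subunits, TNNC1 being shared with slow skeletal muscle. TNNI1 is the slow skeletal troponin I, which the foetal heart also uses before TNNI3 replaces it, and its ratio to TNNI3 is a common gauge of cardiomyocyte maturity. TNNT1 is the slow skeletal troponin T, whereas TNNT3, TNNI2 and TNNC2 are the fast skeletal subunits.

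Of 14829 barcodes, 11211 had at least 1000 genes, at most 25% mitochondrial transcripts and at most 35000 RNA UMIs (unique molecular identifiers, each counting 1 captured transcript). Levels are CPM, the summed UMIs of a gene in a group scaled by the group's total RNA UMIs, which for these 3′-end counts are per molecule and not divided by transcript length. Cells with at least 2000 CPM of MYH6, the atrial myosin heavy chain, were taken as cardiomyocytes (5266 cells, median 16311 UMIs), and cells under 1000 CPM as other cells (5560 cells, median 16972 UMIs). The 385 cells between these limits entered neither group. The name held against the summed level of markers that the gate did not use. The 9 cardiomyocyte genes summed to 28867 CPM in the cardiomyocytes, against 912 CPM in the other cells. All 9 exceeded 10 CPM in both groups, so that count did not separate them. In the other cells 8 epithelial markers summed to 8096 CPM (1219 CPM in cardiomyocytes) and 7 mesenchymal markers to 6216 CPM (655 CPM). Counting both sides of each limit, 154 kept cells lay within 10% of 2000 CPM of MYH6 and 80 within 10% of 1000 CPM. Both counts include cells from between the limits. Scrublet called doublets in 9.21% of the cardiomyocytes and 2.36% of the other cells, and these stayed in the groups.

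The genes sit in pairs of a T and an I subunit, and the results below turn mostly on the adjacent TNNI3 and TNNT1. In RefSeq's GRCh38.p14 both are on the minus strand of chromosome 19, TNNI3 at chr19:55151767-55157732 and TNNT1 at chr19:55132698-55149206, with 2560 bases between them, and DNAAF3 lies 928 bases past TNNI3. TNNT2 (chr1:201359014-201377680) and TNNI1 (chr1:201403784-201421730) flank LAD1 on chromosome 1, and TNNI2 (chr11:1838981-1841678) and TNNT3 (chr11:1919552-1938702) are on chromosome 11. TNNC1 (chr3:52451100-52454041) and TNNC2 (chr20:45823214-45833306) have no troponin neighbour. The 250 bases before the annotated start, which RefSeq's promoter table gave for 3 of the 8 genes, are shown for the variable pair and for TNNT2 as the evenly expressed cardiac gene, 5′ to 3′ on the minus strand. Capitals mark 3 motifs known at muscle promoters, searched on both strands: GATAA, bound by GATA factors, the TEAD factor motif CATTCC, and TATAAA, bound by the TATA-binding protein.
TNNI3 (chr19:55157733-55157982): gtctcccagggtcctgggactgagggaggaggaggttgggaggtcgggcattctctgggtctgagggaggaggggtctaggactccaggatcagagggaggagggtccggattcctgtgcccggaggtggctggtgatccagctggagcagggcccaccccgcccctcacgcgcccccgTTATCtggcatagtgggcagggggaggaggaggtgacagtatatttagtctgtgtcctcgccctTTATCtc
TNNT1 (chr19:55149207-55149456): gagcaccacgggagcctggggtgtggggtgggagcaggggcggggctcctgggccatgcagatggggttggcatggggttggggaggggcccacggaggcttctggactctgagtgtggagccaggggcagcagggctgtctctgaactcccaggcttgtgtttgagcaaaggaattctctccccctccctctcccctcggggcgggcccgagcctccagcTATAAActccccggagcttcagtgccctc
TNNT2 (chr1:201377681-201377930): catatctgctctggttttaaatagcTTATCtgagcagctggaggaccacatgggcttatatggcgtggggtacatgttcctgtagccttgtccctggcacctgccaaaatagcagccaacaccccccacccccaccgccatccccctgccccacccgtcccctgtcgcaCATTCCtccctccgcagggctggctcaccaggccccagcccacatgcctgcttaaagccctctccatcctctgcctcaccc
The TNNI3 window held GATAA at 2 places, starting 71 and 7 bases before the gene, read on the opposite strand as TTATC. That of TNNT1 held none and had TATAAA 29 bases before the start. TNNT2 had 1 GATAA match and 1 CATTCC match, 225 and 81 bases before the start. Among 35116 promoter windows of the same length, 20.4% held GATAA, 11.9% CATTCC and 10.7% TATAAA, so the matches describe these windows and identify no bound site.

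Cardiomyocytes carried the complete cardiac and foetal set at high level and almost none of the fast skeletal subunits. TNNT2 was at 6780.5 CPM (6764 to 6798) in cardiomyocytes and 393 CPM (389 to 397) in other cells, a 17.3-fold difference (17.1 to 17.5). Per cell, TNNT2 in cardiomyocytes ran from 3262 CPM at the 10th percentile to a median of 6719 CPM, and at least 1 UMI was found in 5266 of 5266 cells. TNNC1, the calcium sensor, was at 4549 CPM against 155 CPM, 29.3-fold higher (28.8 to 29.8). TNNI1 was at 1526 CPM against 89.4 CPM, 17.1-fold higher (16.7 to 17.5), and its median cell held 1465 CPM. TNNI3 was at 512 CPM against 28.0 CPM, 18.3-fold higher (17.6 to 19.03). In contrast to TNNI1, TNNI3 was spread unevenly over the cardiomyocytes, with a median cell at 254 CPM, a lower quartile at 47.2 CPM and an upper quartile at 741 CPM. These were all 4 of the 4 troponins that reached 50 CPM in either group. TNNI3 reached it through the cardiomyocytes alone, and TNNT1, which was higher in the other cells, stayed under it there at 31.3 CPM. Over all genes measured that way, 20.7% were at least 1.5-fold higher in cardiomyocytes and 27.7% at least 1.5-fold lower, and the median gene differed by -0.14 on the log2 scale.

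**Figure D1:**
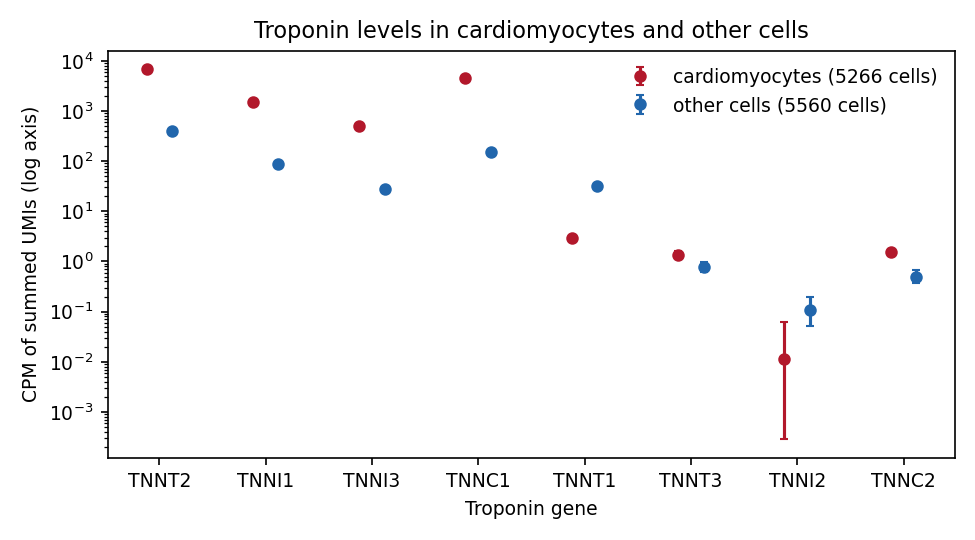
Level of each troponin gene (CPM of summed UMIs, log axis) in the 5266 cardiomyocytes and 5560 other cells, bars being 95% counting intervals. TNNT2, TNNC1, TNNI1 and TNNI3 lie far above the other cells, TNNT1 lies below them at 2.91 CPM against 31.3 CPM, and the fast skeletal genes stay under 2 CPM in both groups.

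The skeletal isoforms were rare. TNNT1 had 259 UMIs in cardiomyocytes (2.91 CPM) and 2961 in other cells (31.3 CPM), so that it was 10.8-fold higher in the other cells (9.48 to 12.3). It was under 50 CPM in both groups, and with a floor of 10 CPM, where it did count as lower in cardiomyocytes, 26.8% of all genes were lower too. TNNC2 gave 136 UMIs against 47, 1.53 CPM against 0.497 CPM, and TNNT3 gave 121 UMIs against 75, 1.36 CPM against 0.793 CPM. TNNI2 gave 1 UMI in cardiomyocytes and 10 in other cells. The regulators of skeletal myogenesis were low as well in cardiomyocytes, MYOD1 at 1.10 CPM (98 UMIs) and MYOG at 1.49 CPM (133 UMIs), with MYF5 at 0 UMIs. In the other cells MYOD1 and MYOG were lower still, with 3 UMIs each (0.0317 CPM). CKM, the muscle creatine kinase, which the heart also uses, was the sole skeletal-list gene over 10 CPM there.

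Nearly every other cell also held some cardiac troponin UMIs. In 1986 epithelial-like cells of cluster 1 (led by CLDN3 and GRIA4) that were neither called doublets nor in the cardiomyocyte gate, TNNT2 was at 372 CPM and found in 97.4% of cells, with EPCAM at 860 CPM and a median depth of 15801 UMIs for the cluster. Thinned to 5000 UMIs per cell, the share of cells with a TNNT2 UMI was 100% in cardiomyocytes and 76.8% in other cells. The level in other cells was 5.79% of the cardiomyocyte level for TNNT2, 5.86% for TNNI1 and 5.47% for TNNI3, but 3.41% for TNNC1. With other cells held to under 100 CPM of MYH6, the log2 ratio of TNNT2 was 4.36 in place of 4.11. The part of RNA free in the suspension in these values was not tested.

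Most measured genes of the filament, maturation and kinase lists were higher in the cardiomyocytes as well, beside 20.7% of all genes measured that were higher and 27.7% that were lower. Of the 9 thin filament genes measured at 50 CPM or more, 6 were higher, among them TMOD1, which caps the actin filament (23.0-fold), cardiac actin ACTC1 (19.7-fold), the nebulin-like NEBL (13.4-fold) and the actin-severing CFL2 (4.61-fold), whereas the tropomyosins TPM3 and TPM4 were lower, with ratios of 0.301 and 0.381, and TPM1, at 1.36, passed 1.5-fold in neither direction. All 7 measured thick filament genes were higher, with titin (TTN) at 42.0-fold, MYL3 at 30.7-fold, MYL7 at 30.03-fold and MYL4 at 28.9-fold. All 9 measured genes known to rise as cardiomyocytes mature were higher too, led by CKM (43.0-fold), myoglobin MB (41.4-fold), phospholamban PLN (29.9-fold) and the M-band gene MYOM2 (17.0-fold). Each of the 9 reached 50 CPM through the cardiomyocytes alone, PLN being the highest in the other cells at 27.3 CPM. None could therefore have counted as lower. Of the list's 15 members, MYH7 (3.47 CPM in cardiomyocytes) and CASQ2 (7.60 CPM) were among those under the floor. Of 5 measured kinases, phosphatases and their regulators that act on troponin or the filaments, 3 were higher: PPP1R12B (8.61-fold), PRKG1 (2.99-fold) and PRKACA (2.61-fold). The other two, PPP1CB (1.17) and ROCK1 (0.995), passed 1.5-fold in neither direction. The median log2 ratio was 4.15 for the 4 troponins, 1.998 for thin filament partners, 4.85 for the thick filament, 4.08 for the maturation list and 1.38 for the kinases, beside -0.14 over 3951 genes. These medians lean on genes that reached 50 CPM through the cardiomyocytes alone and so could not count as lower. Besides the 9 maturation genes and TNNI3, they were MYL3, MYBPC3, MYOM1, TMOD1, NEBL, PPP1R12B, PRKG1 and PRKACA.

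Within the cardiomyocytes TNNI3 varied from cell to cell, and TNNI1 was the main troponin I transcript in most of them. TNNI3 made up 25.1% of the TNNI1 plus TNNI3 UMIs of all cardiomyocytes (24.9 to 25.3%). Of the 5266 cells, 4846 had at least 10 UMIs of the pair, and in these the median share of TNNI3 was 16.4%, with quartiles at 3.85% and 35.3% and the 90th percentile at 50%. The share was under 25% in 2987 cells (61.6%), from 25 to 50% in 1380 (28.5%) and over 50% in 479 (9.88%, 9.06 to 10.8%). TNNI3 was at 0 UMIs in 959 of these cells (19.8%). The median over all 4846 cells was 32 UMIs of the pair, and that of the 959 alone was not computed. These shares compare captured transcripts of 2 genes and say nothing of the proteins. Limited to cells of at most 15% mitochondrial transcripts, the pooled share was 21.5%.

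Cardiomyocytes were next split by TBX3, a T-box repressor known to hold sinoatrial cells in the pacemaker program. The 1634 cells with at least 4 TBX3 UMIs (TBX3 high) had TNNI3 at 259 CPM (253 to 265), and the 1701 cells with 0 TBX3 UMIs had 742 CPM (731 to 752), a ratio of 0.349 (0.340 to 0.359) or 2.86-fold lower. The median TBX3 high cell held 110 CPM of TNNI3 and the median TBX3 0 cell 485 CPM, although the ranges overlapped, with an upper quartile of 359 CPM in the former and a lower quartile of 114 CPM in the latter. TNNI1 was at 1431 CPM against 1610 CPM, a ratio of 0.889 (0.877 to 0.901). TNNT2, at 6852 CPM against 6614 CPM, and TNNC1, at 4709 CPM against 4377 CPM, had ratios of 1.04 and 1.08. TNNI3 was therefore the 1 of the 4 measured troponins past 1.5-fold, in a comparison in which 1.92% of all genes were lower by that fold and 2.53% higher. Its share of the pair was 15.3% (15.02 to 15.7%) in TBX3 high cells and 31.5% (31.2 to 31.9%) in TBX3 0 cells, and the median cell stood at 7.54% against 26.2%.

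At low level, 2 troponin T genes also differed in these groups. TNNT3 had 69 UMIs in TBX3 high cells and 17 in TBX3 0 cells, 2.28 CPM against 0.654 CPM (3.49-fold higher, 2.03 to 6.33). TNNT1 went the other way, with 56 UMIs against 129 and a ratio of 0.373 (0.268 to 0.515). Both lie under the 50 CPM floor, at which a gene was not counted. TBX3 high cells were deeper, with a median of 17332 UMIs against 15076, and held 11.3% called doublets against 4.88%. Between 10000 and 25000 UMIs the log2 ratio of TNNI3 was -1.62, and within clusters it was -1.14, beside -1.52 over all cells.

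Cells split by TRH, the gene of thyrotropin-releasing hormone, showed TNNI3 in the opposite direction. TNNI3 was at 718 CPM (710 to 727) in the 1990 cells with at least 3 TRH UMIs and at 350 CPM (343 to 356) in the 2102 cells with 0, a 2.05-fold difference (2.01 to 2.10). The medians were 508 CPM and 129 CPM per cell, and the lower quartile of TRH high cells, 155 CPM, lay above the median of the TRH 0 cells. TNNT2 (1.26-fold) and TNNC1 (1.28-fold) were higher to a lesser degree, at 7608 CPM against 6052 CPM and 5152 CPM against 4019 CPM. TNNI1 was lower, at 1456 CPM against 1608 CPM, a ratio of 0.905 (0.894 to 0.916). By the 1.5-fold rule only TNNI3 was counted among the 4 measured, and over all genes 1.27% were higher and 1.78% lower. The TNNI3 share was 33.0% (32.7 to 33.4%) against 17.9% (17.6 to 18.2%), and of the cells with 10 UMIs of the pair 18.2% of TRH high cells had more TNNI3 than TNNI1 against 3.39% of TRH 0 cells. TRH high cells were deeper too, with a median of 17586.5 UMIs against 15337, and thinning to 5000 UMIs per cell gave a log2 ratio of 0.99 beside 1.04.

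**Figure D2:**
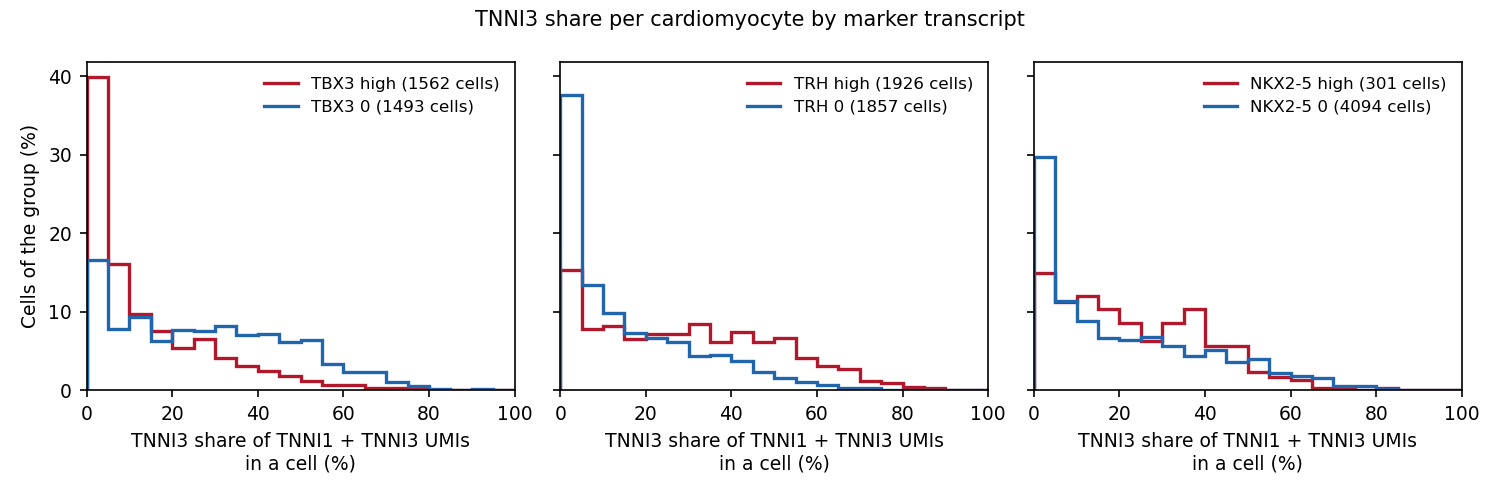
Distribution of the TNNI3 share of TNNI1 plus TNNI3 UMIs over cardiomyocytes with at least 10 UMIs of the pair, in 5% bins, as a percent of each group. TBX3 high and TRH 0 cells gather in the lowest bin, and TBX3 0 and TRH high cells spread to 50% and beyond.

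NKX2-5, a homeobox factor of the working myocardium that is known to be low in much of the sinoatrial node, gave a smaller difference in TNNI3 and the largest in TNNI1. In the 303 cells with at least 3 NKX2-5 UMIs TNNI3 was at 684 CPM (ratio 1.42, 1.37 to 1.47) and TNNI1 at 1912 CPM (ratio 1.29, 1.26 to 1.31), against 482 CPM and 1486 CPM in the 4499 cells with 0. TNNT2 and TNNC1 both had ratios of 1.08. None of the 4 measured troponins passed 1.5-fold, where 2.47% of all genes were higher and 2.77% lower. At most 15% mitochondrial transcripts brought the log2 ratio of TNNI3 to 0.71 from 0.51, and past 1.5-fold. Since both I subunits were higher together, the TNNI3 share was close in the groups, 26.3% (25.6 to 27.1%) against 24.5% (24.3 to 24.7%). Cells with no TNNI3 UMI were fewer among NKX2-5 high cells, 8.31% against 21.6% of those with 10 UMIs of the pair, as were cells with over 50% TNNI3, 5.98% (3.58 to 9.29%) against 10.1% (9.16 to 11.03%). The median UMIs of the pair were 42 and 31.

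The study's own tag, the CD34 antibody, was read in the same cells. The 1319 cardiomyocytes with the most tag (at least 294 tag UMIs) had TNNI3 at 269 CPM against 700 CPM in the 1329 with the least (at most 46), a ratio of 0.384 (0.373 to 0.395). TNNI1 (0.938), TNNT2 (1.08) and TNNC1 (1.18) were within 1.5-fold. Over all genes 1.71% were lower by 1.5-fold and 1.44% higher. The low-level genes were TNNT3 at 53 UMIs against 13 (3.35-fold, 1.80 to 6.70) and TNNT1 at 35 against 87 (ratio 0.331, 0.217 to 0.495). These groups share cells with the TBX3 groups, as 848 of the 1319 tag-rich cells (64.3%) were TBX3 high. Tag UMIs were not scaled by depth. The tag-rich cells were deeper, with a median of 17056 RNA UMIs against 14935, and held 10.4% called doublets against 6.02%. Within clusters the log2 ratio of TNNI3 was -0.97 in place of -1.38.

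**Figure D3:**
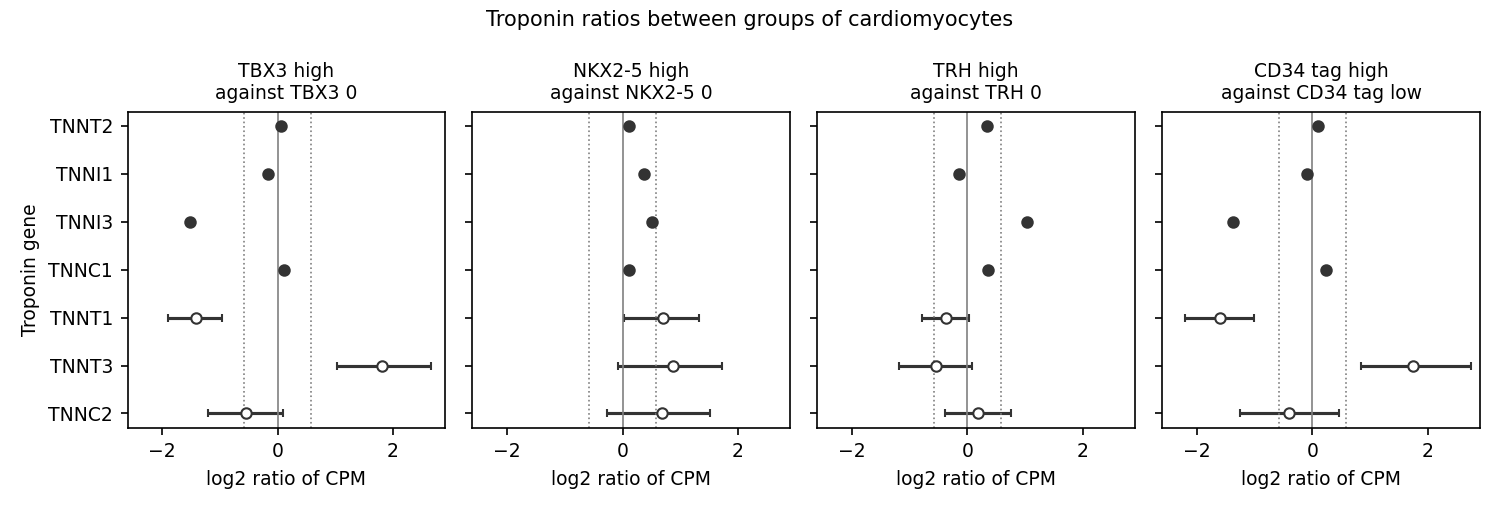
Log2 ratio of CPM for 7 troponin genes in the 4 comparisons among cardiomyocytes, with 95% counting intervals. Filled points are genes of at least 50 CPM in either group, open points rarer genes, dotted lines 1.5-fold, and TNNI3 is the sole filled point past them, at -1.52 by TBX3, 1.04 by TRH and -1.38 by CD34 tag.

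Both markers graded TNNI3 and left TNNI1 nearly level. With 0, 1, 2 to 3, 4 to 7, 8 to 15 and 16 to 41 TBX3 UMIs in the cell the TNNI3 share was 31.5%, 29.2%, 24.0%, 17.4%, 13.3% and 11.4%. Over the same classes TNNI3 went from 742 to 186 CPM and TNNI1 from 1610 to 1440 CPM. With TRH at 0, 1, 2, 3 to 5, 6 to 11, 12 to 24 and 25 to 90 UMIs the share was 17.9%, 19.8%, 22.4%, 24.6%, 30.1%, 37.8% and 45.3%. TNNI3 rose from 350 to 1164 CPM over these classes, while TNNI1 went from 1608 to 1406 CPM. The median depth also climbed, from 15076 to 18558 UMIs over the TBX3 classes and from 15337 to 21274 over the TRH classes. NKX2-5 gave no such order: the share was 24.5% at 0 UMIs, 29.1% at 1, 29.1% at 2, 28.7% at 3 to 5 and 22.7% at 6 to 17, where TNNI1 reached 2065 CPM.

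**Figure D4:**
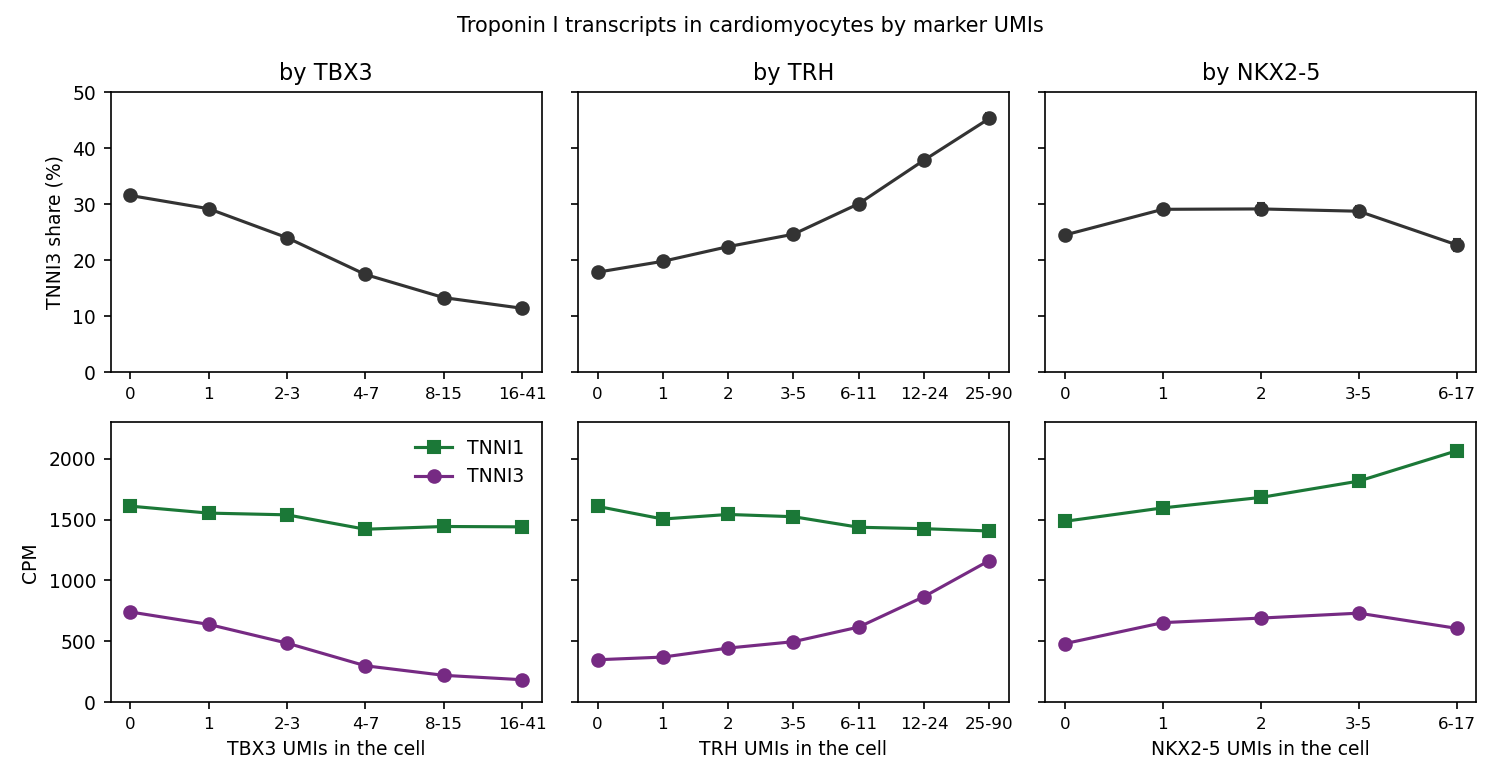
Top, TNNI3 share of TNNI1 plus TNNI3 UMIs (with 95% counting intervals) and, below, TNNI1 and TNNI3 levels (CPM) in cardiomyocytes by the UMIs of TBX3, TRH or NKX2-5 in the cell. The share falls from 31.5 to 11.4% with TBX3 and climbs from 17.9 to 45.3% with TRH, mostly through TNNI3.

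TBX3 and TRH were seen together in some cells, so the 2 were crossed. TNNI3 was lowest, at 180 CPM (172 to 188), in the 682 cells that were TBX3 high with TRH 0, and highest, at 951 CPM (933 to 968), in the 676 cells with TBX3 0 that were TRH high. It was 386 CPM in the 518 cells high for both and 526 CPM in the 682 cells with neither. The shares of TNNI3 in that order were 10.7%, 38.0%, 22.2% and 24.2%, and TNNI1 lay between 1350 and 1645 CPM in the 4 groups. TBX3 high cells were thus lower in TNNI3 inside either TRH group, and TRH high cells were higher inside either TBX3 group, with log2 ratios of 1.10 in TBX3 high and 0.85 in TBX3 0 cells. Crossing TBX3 with NKX2-5 gave shares of 14.7% in TBX3 high cells without NKX2-5 (1472 cells), 23.3% in the 66 cells high for both, 28.2% in the 126 NKX2-5 high cells without TBX3, and 32.1% in the 1366 cells with neither.

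Among thin filament genes, 0 of 10 measured passed 1.5-fold by TBX3, 3 of 11 by TRH, 3 of 10 by NKX2-5 and 1 of 11 by CD34 tag. Over all genes measured, 1.27% were higher and 1.78% lower by TRH, 2.47% and 2.77% by NKX2-5, 2.53% and 1.92% by TBX3, and 1.44% and 1.71% by CD34 tag. By TRH, LMOD2, a leiomodin that elongates cardiac thin filaments, was 2.40-fold higher, whereas smooth muscle actin ACTA2 and the smooth muscle leiomodin LMOD1 were lower (ratios 0.591 and 0.478). NKX2-5 high cells had LMOD2 7.04-fold and NEBL 1.56-fold higher, and ACTA2 at a ratio of 0.539. By CD34 tag LMOD2 was lower (0.544). The ventricular-type light chain MYL3 was higher in all 4 comparisons: 2.80-fold by TBX3, 2.61-fold by NKX2-5, 2.34-fold by TRH and 1.95-fold by CD34 tag, so it was higher by TBX3, where TNNI3 was lower. The 4 comparisons draw on the same cells, and these values are not independent.

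Of the maturation list, 4 of 9 measured genes were higher with TRH: CKM (2.20-fold), HRC (1.63-fold), CKMT2 (1.58-fold) and MYOM2 (1.56-fold), beside the 1.27% of all genes that were higher. The median log2 ratio over the list was 0.53 beside -0.05 over 3306 genes. With NKX2-5, COX6A2 (4.17-fold) and MB (3.70-fold) were the 2 of 10 that were higher, beside 2.47% of all genes, and the list's median was 0.24 beside -0.03. With TBX3, MB was the 1 of 9 that was higher (1.603-fold), beside 2.53% of all genes, and the list's median was -0.23 beside 0.04 over all genes, and by CD34 tag 0 of 9 passed either way. PRKG1, the cGMP-dependent kinase, was the 1 kinase of 5 past the fold, 2.03-fold higher by TBX3 and 1.82-fold by CD34 tag, and at a ratio of 0.346 by NKX2-5.

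Across 5084 cardiomyocytes thinned to 5000 UMIs each, the genes whose counts followed TNNI3 most closely among 3164 were ACTC1 (Spearman's rho 0.35), the small heat shock protein gene CRYAB (0.35), AL136171.2 (0.34), PLN (0.32) and the mitochondrial CHCHD10 (0.31). TRH ranked 7th of them, at 0.28. The lowest were smooth muscle myosin MYH11 (-0.37), FREM2 (-0.31), ACTA2 (-0.25), ALDH1A1 (-0.25) and BMP4 (-0.24). TNNT2 and TNNC1 had a higher coefficient, 0.64, each having MYL4 as its other closest gene (0.63 and 0.66). TNNI3 was at 0.23 with TNNT2, 0.21 with TNNC1 and 0.12 with TNNI1, and TNNI1 was at 0.23 with TNNT2 and 0.19 with TNNC1. Low counts lower such coefficients, and after thinning TNNI3 had a UMI in 62.8% of these cells against 100% for TNNT2. The part of level in these differences was not tested. For TNNT1, at 2.91 CPM, the closest were TMSB4X, MGP, COL1A2, RPL3 and COL3A1, none above 0.09. All these cells share 1 culture and 1 library, so the coefficients are descriptions.

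Clustering of the 11211 cells without the troponin genes gave 20 clusters, of which 9 are left with mostly cardiomyocytes when the doublet-rich cluster 4 (95.6% called doublets) and the shallow clusters 11 and 19 are set aside. The levels below leave out called doublets and keep only the gate that fits the cluster. TNNI3 was highest in cluster 9 (592 cells, led by TRH and PLCXD3), at 1094 CPM and 41.1% of the pair. Next came cluster 6 (675 cells, BCL2A1 and GATM), at 872 CPM and 33.1%, cluster 13 (199 cells, NKX2-5 and LMOD2), at 736 CPM and 25.6%, and cluster 16 (476 cells, with EMC10 among its leading genes), at 610 CPM and 26.1%. Cluster 10 (605 cells, LRRTM3 and MYL3), at 334 CPM and 19.3%, and cluster 8 (1109 cells, KCNG1 and AARD), at 275 CPM and 13.1%, had the least among the clusters not led by cell-cycle genes. TNNI1 spanned 1267 to 2140 CPM over the 9 clusters and was highest in cluster 13. Of the clusters led by cell-cycle genes, cluster 12 (DTL and E2F1) had 26.9% TNNI3, while cluster 14 (HIST1H1A and HIST1H1B) had 15.96% and cluster 17 (NMU and KIF20A) 16.3%. TNNT2 was 4452 CPM in cluster 14, 4969 in cluster 17 and 6580 in cluster 12, and spanned 5645 CPM in cluster 6 to 9193 in cluster 9 over the 6 clusters not led by cell-cycle genes.

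Inside the clusters TNNI3 kept its sign by TRH in 10 of the 11 with at least 10 cells a group (the doublet-rich cluster 4 included), with ratios of 1.38 to 2.81, and in cluster 7 it was 0.863 on 20 and 24 cells. By TBX3 it was lower in 10 of 11, with ratios of 0.239 to 0.780, and 1.17 in cluster 7 on 24 and 12 cells. The spread within a cluster was also wide: in cluster 9, 179 of 571 cells had over 50% TNNI3 and 30 had none, and in cluster 8, 20 of 1052 had over 50% and 383 had none.

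TNNT1 was concentrated in 2 groups of non-cardiomyocytes. Cluster 18 (230 cells after the same exclusions, led by ITLN1 and SPRR2F) had 438 CPM of TNNT1 (419 to 458), in 98.3% of its cells. Cluster 5 (145 cells, led by SERPINE3 and PITX1) had 251 CPM (233 to 270), in 74.5%. The other 6 non-cardiomyocyte clusters had 1.48 to 3.39 CPM, and the cardiomyocyte clusters 0.387 to 4.72 CPM. Cluster 18 was epicardial-like, with all 6 epicardial markers present, among them ITLN1 at 2583 CPM, UPK3B at 333 CPM, BNC1 at 130 CPM and WT1 at 109 CPM, against 2.54, 24.0, 27.2 and 0.390 CPM in cluster 1. MYOG was at 0 UMIs and MYOD1 at 1 UMI in it. Thinned to 5000 UMIs, 77.5% of all cells in cluster 18 and 54.7% in cluster 5 had a TNNT1 UMI, against 1.04% in cluster 1.

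The troponin I genes TNNI1 and TNNI3 were also higher in cluster 18 than in cluster 1, and TNNT2 and TNNC1 were not. TNNI1 was at 341 CPM (324 to 359) against 39.8 CPM in cluster 1, and TNNI3 at 210 CPM (196 to 224) against 13.2 CPM, whereas TNNT2 was at 275 CPM against 372 CPM and TNNC1 at 128 CPM against 146 CPM. MYH6 was at 118 CPM against 139 CPM. Cluster 5 had TNNI1 at 152 CPM and TNNI3 at 30.6 CPM, with TNNT2 at 209 CPM. The TNNI3 share of the pair was 38.0% (36.1 to 40.0%) in cluster 18, 16.7% in cluster 5 and 24.9% in cluster 1. In cluster 18 TNNI1 exceeded TNNT2, a pattern seen in none of the other clusters shown.

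**Figure D5:**
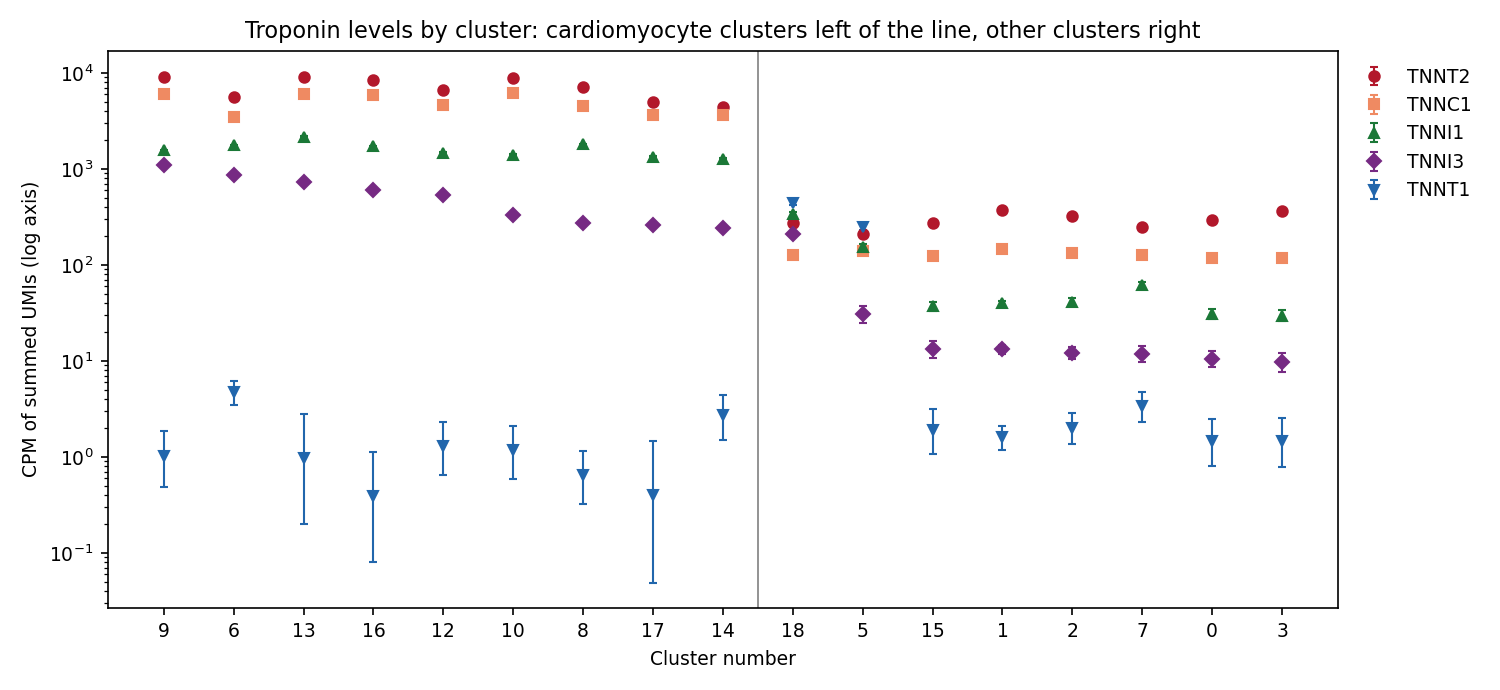
Levels (CPM, log axis, 95% counting intervals) of 5 troponin genes in 17 clusters, called doublets and cells of the wrong gate left out, cardiomyocyte clusters by falling TNNI3 at left and other clusters at right. TNNT1, TNNI1 and TNNI3 are high in cluster 18 (438, 341 and 210 CPM) where TNNT2 (275 CPM) and TNNC1 (128 CPM) lie within the range of the other clusters at right.

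The same set of genes was followed in single cells by splitting the other cells, doublets left out, into 284 with at least 3 TNNT1 UMIs and 4960 with 0, a split chosen after the values above were seen. Of the 284, 193 were in cluster 18 and 82 in cluster 5. TNNI3 was at 168 CPM (158 to 179) in the TNNT1 cells and 16.1 CPM in the rest, 10.4-fold higher (9.62 to 11.3), and TNNI1 at 296 CPM against 68.2 CPM, 4.35-fold higher (4.12 to 4.58). TNNT2 had a ratio of 0.750 (0.714 to 0.786) and TNNC1 of 0.927 (0.863 to 0.994). With MYH6 under 100 CPM in both groups (145 and 2128 cells), TNNI3 was 14.2-fold and TNNI1 6.22-fold higher, and TNNT2 had a ratio of 0.792. Of other cardiac filament genes, MYL7 was higher, 1.27-fold (1.22 to 1.31) in the whole split and 1.66-fold (1.57 to 1.75) under that MYH6 limit. ACTC1 had ratios of 0.777 and 0.946 in the same order, and MYH6 of 0.874 and 1.16. The share of all genes past 1.5-fold was not counted for this split. Its groups differed widely, with EPCAM at 23.1 CPM against 698 CPM and ITLN1 at 1855 CPM against 3.47 CPM. DNAAF3, the dynein assembly factor gene beyond TNNI3, had 57 UMIs against 14, 55.5-fold higher (30.5 to 108). At 9.41 CPM against 0.170 CPM it lay under the 50 CPM floor. TNNI3 and DNAAF3 lie near TNNT1 on chromosome 19, at higher coordinates, and were higher in these cells, as was TNNI1 on chromosome 1. TNNT2, also on chromosome 1, was not higher, and LAD1, which lies between it and TNNI1, was not looked at. Any bearing of gene position on these levels was not tested. Of the tropomyosins that troponin T binds, TPM2 was 3.84-fold higher (992 CPM against 259 CPM) and TPM1 lower, with a ratio of 0.227 (1926 CPM against 8495 CPM). The TNNT1 cells were deeper, with a median of 21278 UMIs against 16684. How these genes came to be detected together was not tested.

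The 3 fast skeletal genes were low in every cluster. TNNT3 was highest in cluster 7 (554 cells, led by LAMP5 and BGN), with 53 UMIs or 5.61 CPM (4.20 to 7.34), against 0.293 CPM in cluster 1 and 2.58 CPM in cluster 10, the highest of the cardiomyocyte clusters. Thinned to 5000 UMIs, 2.89% of the cells in cluster 7 (1.75 to 4.48%) had a TNNT3 UMI against 0.0519% in cluster 1. TNNC2 stayed between 0.202 and 2.85 CPM in the 17 clusters and was highest in cluster 9 (28 UMIs). TNNI2 had no UMI in 14 of the 20 clusters before exclusions and at most 6 in any.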

How the data were processed

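The authors deposited UMI counts per gene and cell barcode, with the CD34 tag as an extra row, made with Cell Ranger 6.1.2 on GRCh38 per the submitters' processing notes and, for the version, per the file headers. The 8 genes, the marker rules and the gene lists were chosen with earlier results of these data known. From the counts, CPM of summed UMIs, exact Poisson intervals of levels, exact conditional binomial intervals of ratios and Clopper-Pearson intervals of shares (95%) were computed with Python 3.11.15, numpy 2.4.6 and scipy 1.17.1. Genes were counted as higher or lower at 1.5-fold with at least 50 CPM in the higher group. Kept cells had a median of 16607 UMIs. Cells were clustered with scanpy 1.11.5 (2000 variable genes, 30 components, 15 neighbours, Leiden resolution 1), leaving out troponin, mitochondrial and ribosomal genes. Scrublet called 730 doublets, which stayed in the groups of the marker rules and out of the cluster levels. Named genes were the 8 troponins, at most 4 members per list and direction past the fold, the 5 closest and 5 least alike genes, genome neighbours and 2 leading genes per cluster, except that 1 leading gene of cluster 16 is not reported here. The interval and ratio functions were tested on simulated data. No value column was left unmapped. PCR copies are removed by UMIs, and intervals and zero counts reflect counting error only. Protein sequences were not used here.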

Additional observations from a re-analysis of the deposited data

Results flagged for a closer look

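Barcodes outside every comparison also held TNNT2, the cardiac troponin T transcript, and no comparison above used them. It was at 3073 CPM in the 1975 barcodes of under 1000 genes, at 2461 CPM in 735 barcodes of at least 1000 genes and over 25% mitochondrial transcripts, at 2635 CPM in 908 barcodes of over 35000 UMIs and at 2597 CPM in the 385 cells with 1000 to 2000 CPM of MYH6, each above the 393 CPM of the other cells. The TNNI3 share of TNNI1 plus TNNI3 in these sets was 25.1%, 30.4%, 25.1% and 22.6%, beside 25.1% in the cardiomyocytes. TNNT1 was at 27.6 CPM in the barcodes of over 35000 UMIs and at 28.9 CPM in the cells between the MYH6 limits, near the 31.3 CPM of the other cells.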

How the results depend on the processing

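With 1 culture the values have counting error and no replicate spread, and no paired analysis was possible because there was a single culture. The log2 ratio of TNNI3 kept its sign under every alternative run for it, from -1.62 to -1.13 by TBX3, 0.41 to 0.71 by NKX2-5, 0.85 to 1.10 by TRH and -1.52 to -0.97 by CD34 tag. TNNT2 and TNNC1 changed sign by TBX3, and TNNI1 by CD34 tag, in 2, 1 and 1 alternatives, none of them past 1.5-fold. Values that moved by more than their counting interval follow in the order TNNT2 in cardiomyocytes against other cells, then TNNI3 by TBX3, NKX2-5, TRH and CD34 tag, then the TNNI3 share. MYH6 of at least 5000 CPM gave 4.26, -1.59 (TBX3), 0.56 (NKX2-5), -1.51 (CD34) and 26.0%. At most 15% mitochondrial UMIs gave 4.09, 0.71 (NKX2-5), 0.89 (TRH), -1.46 (CD34) and 21.5%. No upper limit on UMIs gave 3.94, -1.45, 0.41, 0.97 and -1.31. Cells of 10000 to 25000 UMIs gave 4.17, -1.62 (TBX3) and -1.52 (CD34). Thinning to 5000 UMIs gave 0.99 (TRH) and 24.7%. A marker limit of 2 UMIs gave -1.13 (TBX3) and 0.95 (TRH). Median ratio scaling gave 4.25, -1.56 (TBX3) and 1.09 (TRH), and ratios within clusters gave -1.14 (TBX3), 0.96 (TRH) and -0.97 (CD34). TNNT2 was 4.23 without doublets, 3.93 as the mean CPM per cell and, chosen after seeing the data, 4.36 against other cells under 100 CPM of MYH6. Also chosen after seeing the data, TNNI3 by TBX3 was -1.30 inside TRH high cells, and by TRH 1.10 and 0.85 inside TBX3 high and TBX3 0 cells. Leaving out cycling cells gave a share of 26.5%. At the lowest fold tried the troponins past it were 2 by NKX2-5 and 3 by TRH. The genes past 1.5-fold numbered 1911 between cardiomyocytes and other cells, and 4534 with a floor of 10 CPM or 1180 at 2-fold. By TBX3 they were 148 (511 and 50), by NKX2-5 174 (578 and 76), by TRH 101 (308 and 24) and by CD34 tag 105 (371 and 38). At the lowest fold they were 387, 422, 318 and 319. With 13 clusters in place of 20 the highest TNNT1 level of a cluster was 329 CPM in place of 390 CPM, and the shares of TNNI3 ran from 17.9 to 30.6% in place of 13.1 to 41.2%. The causes were not tested. Depth limits TNNI2, TNNC2, TNNT3 and the cardiomyocytes' TNNT1, at under 3 CPM in the whole groups of cardiomyocytes and, except TNNT1, of other cells. Some smaller groups lay above that, such as TBX3 0 cardiomyocytes with TNNT1 at 4.96 CPM.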
